A study of Mus musculus with 8 samples.

Results

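The 37 genes described here encode the enzymes of mevalonate and sterol synthesis, the proteins that sense sterols and switch this synthesis on or off, and the proteins that move, store and remove cholesterol. They were listed by gene symbol under a rule that uses no measured value, although earlier results of these data were known, and all 37 were found among the 29442 genes of the count table. Ventral hippocampal RNA came from female C57BL/6 J mice aged 6 to 8 weeks. Of these, 4 received DHEA, an adrenal androgen precursor, at 30 mg/kg/day and 4 received sesame oil, its vehicle, by subcutaneous injection for 21 days, and the mice went through behavioral tests before dissection. The DHEA group comprised libraries HipR3, HipR4, HipR7 and HipR11, and the sesame oil group HipR5, HipR9, HipR10 and HipR16.

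Total counts were 35748416 to 38038361 in the DHEA libraries and 31483772 to 35418297 in the sesame oil libraries. The number of reads counted for a member in a library ran from 70 to 44883, with a median mean count of 1645. Groups are named by the deposited treatment label, and a positive log2 fold change means a higher level under the DHEA label. The signs in the study's own list of differentially expressed genes are opposite to those that the deposited labels give, so each direction below holds only as far as the labels are right.

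Some libraries stood apart. On the first principal component of 16813 genes (33.4% of the variance), HipR4 scored 35.61 and HipR3 21.84, whereas the other 6 libraries lay between -12.70 and -3.62. The 13 mitochondrially encoded genes took 7.29% to 9.34% of the counts in the DHEA libraries and 6.37% to 7.23% in the sesame oil libraries. GC content also separated the groups. The Spearman correlation, across genes, between GC content and the deviation of a library from the mean was -0.159 to -0.011 in the DHEA libraries and 0.073 to 0.183 in the sesame oil libraries, and its part in the results was not tested beyond the GC-corrected values given below. Choroid plexus markers summed to 93.9 CPM in HipR4 and 512 CPM in HipR9 but to 2041 to 4493 CPM in the other libraries. Values without HipR3 and HipR4 are therefore given for many of the members below. Those fits keep only HipR7 and HipR11 in the DHEA group, so a higher p in them can also come from the smaller group. The hippocampal markers Prox1, Zbtb20, Wfs1, Neurod6, Fibcd1, C1ql2, Spink8 and Neurod2 were detected in every library, and none was at 0.

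Cholesterol does not cross the blood-brain barrier in useful amounts, so the brain makes its own. Acetyl units are built into mevalonate and isoprenoids, which are joined to squalene and closed into the sterol ring. When membrane sterol is low, SCAP carries SREBP proteins from the endoplasmic reticulum to the Golgi, where they are cleaved and released to activate the synthesis genes, while INSIG proteins hold the complex back when sterol is plentiful. When sterol is abundant, oxysterols activate the nuclear receptors LXRα and LXRβ, which induce efflux pumps. In the adult brain astrocytes supply cholesterol on APOE particles, oligodendrocytes use large amounts of it for myelin, and neurons hydroxylate the surplus for export.

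SREBP proteins act at promoters together with the factors NF-Y, which binds CCAAT, and Sp1, which binds GC-rich boxes. To show these letters in the 4 genes with the lowest p among those higher in the DHEA libraries, the 250 bases before the transcription start are printed below from RefSeq (GRCm38.p6), 5′ to 3′ on the strand of the gene. Capitals mark TCACNCCAC (a form of the sterol regulatory element), CCAAT and GGGCGG, each searched on both strands, so that ATTGG and CCGCCC are the last 2 on the opposite strand. The windows lie at chr13:119690101-119690350 (plus strand) for Hmgcs1, chr5:28071162-28071411 (plus strand) for Insig1, chr8:64733579-64733828 (minus strand) for Msmo1 and chr12:84773113-84773362 (minus strand) for Npc2. The build named for the counts is GRCm39, so these positions were not used with the counts.
Hmgcs1: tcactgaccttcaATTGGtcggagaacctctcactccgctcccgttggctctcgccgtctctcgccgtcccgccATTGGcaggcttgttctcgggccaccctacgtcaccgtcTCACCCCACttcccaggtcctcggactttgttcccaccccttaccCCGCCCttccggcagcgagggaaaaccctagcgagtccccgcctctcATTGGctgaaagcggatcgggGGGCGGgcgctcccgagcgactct
Insig1: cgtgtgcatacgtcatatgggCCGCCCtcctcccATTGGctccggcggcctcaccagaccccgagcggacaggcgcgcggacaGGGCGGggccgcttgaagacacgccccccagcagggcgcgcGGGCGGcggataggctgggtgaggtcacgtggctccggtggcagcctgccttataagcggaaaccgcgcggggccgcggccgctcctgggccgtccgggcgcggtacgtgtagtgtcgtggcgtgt
Msmo1: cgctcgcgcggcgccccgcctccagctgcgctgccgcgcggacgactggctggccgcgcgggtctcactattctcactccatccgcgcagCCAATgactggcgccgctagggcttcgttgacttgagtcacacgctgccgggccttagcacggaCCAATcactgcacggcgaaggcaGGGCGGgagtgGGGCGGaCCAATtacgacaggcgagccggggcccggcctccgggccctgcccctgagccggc
Npc2: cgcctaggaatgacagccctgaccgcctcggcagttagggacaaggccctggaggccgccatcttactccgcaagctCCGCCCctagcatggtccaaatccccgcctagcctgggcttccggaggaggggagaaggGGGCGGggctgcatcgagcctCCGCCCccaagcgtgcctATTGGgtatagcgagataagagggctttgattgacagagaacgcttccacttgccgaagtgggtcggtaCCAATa

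The Hmgcs1 window holds TCACCCCAC from base -137 to -129, flanked by 3 CCAAT and 2 GGGCGG matches. That of Msmo1 holds 3 CCAAT and 2 GGGCGG matches, that of Insig1 holds 1 and 3, and that of Npc2 holds 2 and 3. RefSeq promoter windows were matched for 29 of the 37 genes, and Fdps, Fdft1, Sqle, Abcg1, Abcg4, Lpl, Npc1 and Stard4 had no entry. CCAAT occurred in 23 of the 29 genes (79.3%) and in 37.5% of all 27025 genes with such windows. GGGCGG also occurred in 23 of the 29 (79.3%), against 35.4% of all genes. TCACNCCAC was found in 1 member, Hmgcs1 (3.45%), and in 1.22% of all genes. The LXR direct repeat, 2 copies of AGGTCA with 4 bases between them, was in 0 of the 29 and in 0.0148% of all genes. These matches describe the printed letters and are not evidence of binding.

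None of the 37 genes passed the test after adjustment over all 27612 genes tested. In edgeR's quasi-likelihood test 0 members had an adjusted p under 0.05, as did 0% of all genes, and the smallest adjusted p of a member was 0.275. DESeq2 also gave 0 members (it gave Nr1h3 no adjusted p), while 1.21% of the 12623 genes to which it gave an adjusted p were under 0.05. At an unadjusted p under 0.05, edgeR gave 4 members that were higher in the DHEA libraries, Insig1, Npc2, Msmo1 and Hmgcs1, and 1 that was lower, Abcg4. The 4 higher members were 10.8% of the 37, beside 4.82% of all genes and 6.85% of the 16813 genes whose mean count reached 10. The 1 lower member was 2.7%, beside 4.49% and 6.26%. This split changed with the setting. It was 3 higher and 3 lower on both FPKM scales in limma and 4 and 4 without HipR7. Without HipR11 it was 8 and 1, and without HipR3 and HipR4 it was 4 and 0. The numbers over all genes moved too. They were 1055 and 1549 of 27612 on the log2(FPKM + 1) scale and 1054 and 1551 on the log2(FPKM + 0.1) scale. Without HipR7 they were 1776 and 1891 of 27264, and without HipR11 1566 and 1670 of 27288. Without HipR3 and HipR4 they were 1081 and 1054 of 27062, beside 1332 and 1239 of 27612 with all libraries. By the study's thresholds, which ask for an unadjusted p under 0.05 together with a 2-fold difference either way, 0 members were called, beside 1.6% of all genes and 0.446% of those whose mean count reached 10. Fold changes ran only from 0.84 for Nr1h3 to 1.23 for Insig1 and Npc2, and standard errors on the log2 scale from 0.06 to 0.21. In CPM the groups did not overlap for 1 member that was higher in the DHEA libraries, Ggps1, and 2 that were lower, Scap and Abcg4. Among genes whose mean count reached 10, 3.63% did not overlap with DHEA higher and 3.53% with DHEA lower.

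The median log2 fold change over the members was 0.02, beside 0.01 over all genes tested. Positive values were found for 24 of the 37, beside 14141 of all 27612 genes. They were found for 18 members on the FPKM scale and for 29 after correction for GC content, so the members as a group had no direction that held across scalings. Among all genes whose mean count reached 10 the median moved too. It was 0.01 in edgeR, -0.01 and -0.02 on the FPKM scales and 0.03 after GC correction. By role, the median was 0.04 for the 8 mevalonate genes, 0.09 for the 11 sterol genes, 0.02 for the 5 SREBP regulators, which became -0.01 on the FPKM scale, 0.11 for the 8 transport genes, -0.17 for the 3 LXR genes and -0.11 for the 2 turnover genes. The mevalonate median was -0.01 without HipR16 and -0.00 without HipR3 and HipR4. The sterol median ran from 0.02 without HipR5 or HipR7 to 0.15 without HipR9. The LXR median was -0.11 without HipR9 and -0.21 without HipR3 and HipR4. The turnover median was -0.05 without HipR3 and HipR4 and -0.15 without HipR7.

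**Figure D1:**
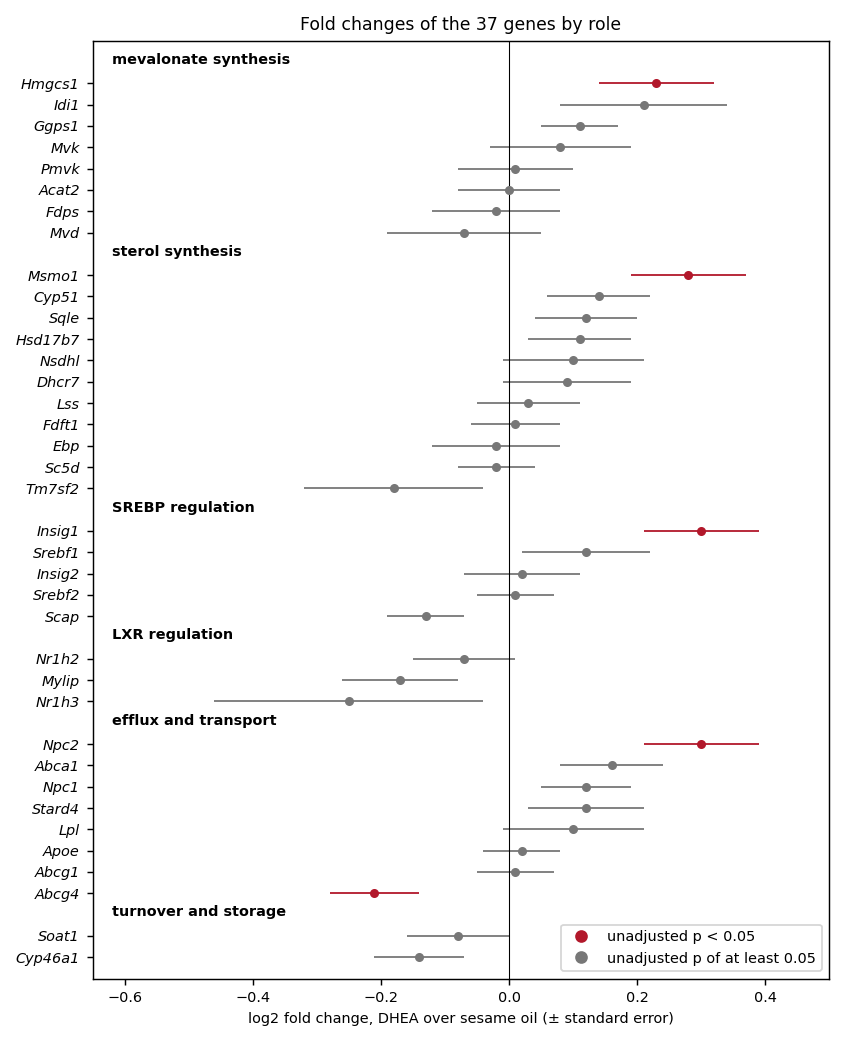
Log2 fold change of each of the 37 genes (horizontal axis, DHEA over sesame oil, ± standard error from edgeR) grouped by role. The 5 red points had an unadjusted p under 0.05, and all values lie between -0.25 and 0.30.

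Levels per gene length spanned a wide range. On the deposited FPKM scale, averaged over the 8 libraries, Apoe, the main lipid carrier of the brain, stood at 482. Hmgcs1 followed at 64.5, then Msmo1 at 32.7, Cyp46a1 at 31.8, Srebf2 at 28.4 and Insig1 at 22.9. Msmo1 and Cyp46a1 differed by less than their spread between libraries. Most members lay between 4.16 (Hsd17b7) and 20.7 (Fdps), and Nr1h3, the gene of LXRα, was the lowest at 1.09. Its counterpart for LXRβ, Nr1h2, stood at 8.49. Srebf2, the SREBP gene that mainly drives cholesterol synthesis, exceeded Srebf1, which mainly drives fatty acid synthesis and stood at 8.35.

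**Figure D2:**
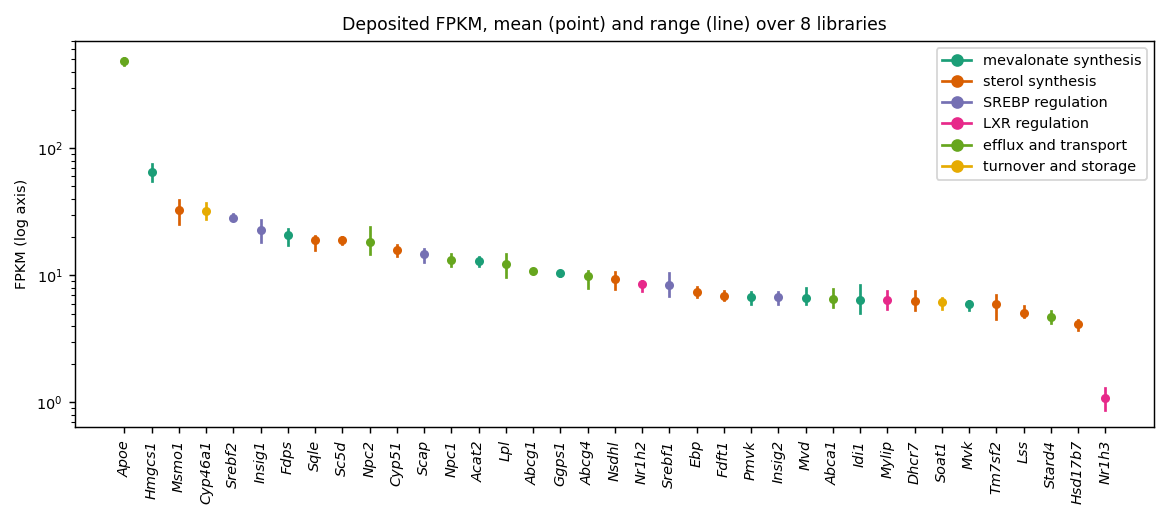
FPKM of the 37 genes (vertical log axis) as deposited by the authors, in descending order of the mean over 8 libraries (points), with the range over the libraries (lines) and colors for the roles. Apoe at 482 and Nr1h3 at 1.09 mark the ends of the range.

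Among the mevalonate genes, Hmgcs1, which condenses acetyl-CoA with acetoacetyl-CoA, had the lowest p. Its level was 315, 325, 296 and 238 CPM in HipR3, HipR4, HipR7 and HipR11 and 232, 288, 251 and 232 CPM in HipR5, HipR9, HipR10 and HipR16. The 3 highest libraries were labelled DHEA, but HipR11 lay below HipR9 and HipR10, so the groups overlapped. The means were 294 ± 38.9 CPM (SD, n = 4) and 250 ± 26.4 CPM (SD, n = 4) (two-sided exact permutation test, p = 0.114). Its log2 fold change in edgeR was 0.23 (standard error 0.09, unadjusted p = 0.0189, adjusted p = 0.422). Without HipR3 and HipR4 it was 0.09 (unadjusted p = 0.354), and the unadjusted p also passed 0.05 without HipR4 (0.0627), HipR5 (0.0648) or HipR16 (0.0704). Exons of the antisense gene Gm48342 cover 12.1% of the Hmgcs1 exon bases in GENCODE vM21, and whether the counting used strand is not given in the sources used here.

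Ggps1 makes geranylgeranyl diphosphate, a branch of the pathway that serves protein prenylation. It was 77.8, 81.9, 77.6 and 79.5 CPM in HipR3, HipR4, HipR7 and HipR11 and 73.9, 71.4, 72.6 and 76.5 CPM in HipR5, HipR9, HipR10 and HipR16. Every DHEA library exceeded every sesame oil library, by a small margin between HipR7 and HipR16 (two-sided exact permutation test, p = 0.0286, which is the minimum for groups of 4 and 4). Groups without overlap always give this minimum, so it restates the lack of overlap for which Ggps1 was described. Its log2 fold change of 0.11 (standard error 0.06) did not pass the edgeR test (unadjusted p = 0.0911, adjusted p = 0.591), and it was 0.06 (unadjusted p = 0.338) after GC correction. Exons of the opposite-strand gene Arid4b cover 5.44% of the Ggps1 exon bases. The other mevalonate genes had log2 fold changes from -0.07 (Mvd, the decarboxylase) to 0.21 (Idi1, the isopentenyl diphosphate isomerase, standard error 0.13), none with an unadjusted p under 0.05. Idi1 rested on single libraries, at -0.03 without HipR3 and HipR4, 0.07 without HipR4 and 0.30 (unadjusted p = 0.0328) without HipR11. Fdps, the farnesyl diphosphate synthase, shares 26.7% of its exon bases with the protein-coding gene Gm43738 on the same strand, so its level and its log2 fold change of -0.02 are uncertain. That value was -0.18 (unadjusted p = 0.0616) without HipR3 and HipR4, -0.11 without HipR4 and 0.06 without HipR7. Acat2, the cytosolic thiolase of the first step, had a mean of 26.7 CPM in both groups.

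In the sterol branch, Msmo1, which oxidizes the C4 methyl groups of lanosterol derivatives, had the lowest p of the branch. It was 86.6, 93.6, 81.8 and 72.4 CPM in HipR3, HipR4, HipR7 and HipR11 and 57.9, 78, 74.3 and 64.8 CPM in HipR5, HipR9, HipR10 and HipR16. As for Hmgcs1, HipR11 lay below HipR9 and HipR10. Its means were 83.6 ± 8.87 CPM (SD, n = 4) with DHEA and 68.7 ± 9.12 CPM (SD, n = 4) with sesame oil, for which the exact permutation test (two-sided) gave p = 0.0857. In edgeR Msmo1 had a log2 fold change of 0.28 (standard error 0.09, unadjusted p = 0.00664, adjusted p = 0.336 from edgeR). Its unadjusted p stayed under 0.05 in all 8 fits that left out 1 library, at 0.035 or less, but without both HipR3 and HipR4 the log2 fold change was 0.16 and the unadjusted p 0.132.

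Sqle encodes squalene epoxidase, a rate-limiting enzyme of the sterol branch. It was 56.3, 57.2, 55.7 and 49.7 CPM in HipR3, HipR4, HipR7 and HipR11 and 52.3, 53.2, 52.1 and 43.4 CPM in HipR5, HipR9, HipR10 and HipR16. The groups overlapped through HipR11, and HipR16 was the lowest library (two-sided exact permutation test, p = 0.143; edgeR log2 fold change 0.12, standard error 0.08, adjusted p = 0.643). The log2 fold change of Sqle was 0.05 without HipR16, 0.06 without HipR3 and HipR4 and 0.17 (unadjusted p = 0.0483) without HipR11. Dhcr7, which reduces 7-dehydrocholesterol to cholesterol, was 27.8, 30.9, 33.9 and 25.2 CPM in the same order of DHEA libraries and 23.6, 30.8, 29.9 and 26.1 CPM in the sesame oil libraries. No order of the groups was visible for Dhcr7 (two-sided exact permutation test, p = 0.543), and its log2 fold change was 0.09 (standard error 0.10), or 0.02 to 0.16 with 1 library left out. Of the other sterol genes, Cyp51, the lanosterol demethylase, had the lowest p (log2 fold change 0.14, unadjusted p = 0.0941 in edgeR). It was 0.06 without HipR3 and HipR4 and 0.08 without HipR4, but 0.18 (unadjusted p = 0.0398) without HipR9 and 0.20 (0.0122) without HipR11. Tm7sf2, a sterol C14 reductase, had the most negative value at -0.18 (standard error 0.14, unadjusted p = 0.227 in edgeR), which became 0.01 without HipR3 and HipR4 and -0.30 (unadjusted p = 0.0482) without HipR7. Tm7sf2 shares 12.1% of its exon bases with Vps51 on the same strand. Fdft1, Lss, Nsdhl, Hsd17b7, Ebp and Sc5d lay between -0.02 and 0.11, none with an unadjusted p under 0.05, and 18.3% of the Fdft1 exon bases are shared with the opposite-strand gene Ctsb.

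Of the sterol-sensing proteins, Insig1, which retains the SCAP-SREBP complex in the endoplasmic reticulum and is itself an SREBP target, had the lowest p of all 37 members. It was 62.2, 72.3, 71.4 and 62.1 CPM in HipR3, HipR4, HipR7 and HipR11 and 48.2, 63.1, 55.3 and 50.6 CPM in HipR5, HipR9, HipR10 and HipR16. The overlap came from HipR9 alone, which exceeded HipR3 and HipR11. The means were 67 ± 5.62 CPM (SD, n = 4) and 54.3 ± 6.56 CPM (SD, n = 4), a difference with p = 0.0857 by exact permutation (two-sided). In edgeR Insig1 had a log2 fold change of 0.30 (standard error 0.09, unadjusted p = 0.00227, adjusted p = 0.275 from edgeR). It was 0.29 (unadjusted p = 0.00875) without HipR3 and HipR4, 0.32 after GC correction and 0.25 to 0.38 with each library left out.

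Scap, the sterol sensor that escorts SREBP, was lower in the DHEA libraries. It was 66.9, 61.5, 68.7 and 66.2 CPM in HipR3, HipR4, HipR7 and HipR11 and 71.4, 68.9, 74.9 and 73.3 CPM in HipR5, HipR9, HipR10 and HipR16. The groups did not overlap, although HipR7 and HipR9 were nearly equal (two-sided exact permutation test, p = 0.0286). As for Ggps1, this p is the minimum and restates the lack of overlap. In edgeR the log2 fold change was -0.13 (standard error 0.06, unadjusted p = 0.0515, adjusted p = 0.534), and 13.2% of its exon bases are shared with the opposite-strand transcript 5830462I19Rik. With DESeq2 the unadjusted p of Scap was 0.0274, and after GC correction its log2 fold change was -0.06 (unadjusted p = 0.35). Srebf2 was 163, 160, 162 and 156 CPM with DHEA and 156, 166, 156 and 157 CPM with sesame oil, in the same library order. The 2 groups of Srebf2 coincided (log2 fold change 0.01, standard error 0.06), and the sign turned on the FPKM scale. Srebf1 (0.12, standard error 0.10) and Insig2 (0.02, standard error 0.09) did not pass the edgeR test, although Srebf1 had a log2 fold change of 0.29 (unadjusted p = 0.00534) without HipR3 and HipR4. It was 0.03 without HipR11 and 0.05 without HipR16.

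For all 3 LXR genes the log2 fold change was negative with the 8 libraries, and none passed the edgeR test. Mylip, an LXR-induced ubiquitin ligase that removes lipoprotein receptors, was at -0.17 (standard error 0.09, unadjusted p = 0.0773), -0.22 (0.0329) without HipR16 and -0.11 (0.261) without HipR9. Nr1h3 was at -0.25 with the largest standard error of the members, 0.21, and had 70 counts in its lowest library. The log2 fold change of Nr1h2 was -0.07 (standard error 0.08). Nr1h2 was at 0.00 both after GC correction and without HipR3 and HipR4.

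Among the transport genes, Npc2 and Abcg4 had the lowest p, with opposite signs. Npc2, the lysosomal protein that hands cholesterol to NPC1, was 79.8, 63.7, 56.9 and 64.5 CPM in HipR3, HipR4, HipR7 and HipR11 and 54.8, 55.1, 48 and 57.8 CPM in HipR5, HipR9, HipR10 and HipR16. HipR3 was far above the rest and HipR7 lay within the sesame oil range (two-sided exact permutation test, p = 0.0571). In edgeR Npc2 had a log2 fold change of 0.30 (standard error 0.09, unadjusted p = 0.00432, adjusted p = 0.303 from edgeR). It was 0.19 (unadjusted p = 0.0256) without HipR3 and 0.16 (unadjusted p = 0.0608) without HipR3 and HipR4. Its partner Npc1, the lysosomal membrane exporter, had a log2 fold change of 0.12 (standard error 0.07, unadjusted p = 0.0861 in edgeR), with 0.17 (0.0281) without HipR9 and 0.16 (0.0462) without HipR3 and HipR4, but 0.09 without HipR16 (0.26) or HipR11 (0.222).

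Abcg4, a sterol efflux pump expressed mainly in the brain, was 48.1, 44.5, 54.2 and 50.1 CPM in HipR3, HipR4, HipR7 and HipR11. It was 58.2, 55.4, 57.2 and 56.7 CPM in HipR5, HipR9, HipR10 and HipR16. All 4 DHEA libraries lay below the sesame oil libraries, which were close together (49.2 ± 4.07 against 56.9 ± 1.17 CPM, SD, n = 4 each; two-sided exact permutation test, p = 0.0286). In edgeR Abcg4 had a log2 fold change of -0.21 (standard error 0.07, unadjusted p = 0.00871, adjusted p = 0.363 from edgeR), -0.15 (unadjusted p = 0.0487) after GC correction and -0.13 (unadjusted p = 0.055) without HipR3 and HipR4. Its paralog Abcg1 was level between the groups (63.5 ± 2.72 against 63.1 ± 2.3 CPM, SD, n = 4 each).

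Abca1, the LXR-induced pump that loads lipid onto APOE, was 73.4, 60.6, 72.1 and 80.4 CPM in HipR3, HipR4, HipR7 and HipR11 and 61.7, 59.9, 64 and 70.3 CPM in HipR5, HipR9, HipR10 and HipR16. HipR4 lay within the sesame oil range (two-sided exact permutation test, p = 0.171). In edgeR Abca1 had a log2 fold change of 0.16 (standard error 0.08, unadjusted p = 0.0613, adjusted p = 0.553 from edgeR), but 0.23 (unadjusted p = 0.00498) without HipR4, 0.20 (0.0314) without HipR16 and 0.25 (0.00522) without HipR3 and HipR4. It was smaller without HipR11 (0.10, unadjusted p = 0.221), without HipR9 (0.13) and on the log2(FPKM + 1) scale with limma (0.11, unadjusted p = 0.223). Apoe was 1188, 1259, 1084 and 1204 CPM with DHEA and 1191, 1222, 1117 and 1152 CPM with sesame oil, in the same library order. The sesame oil range of Apoe lay inside the DHEA range, and its log2 fold change of 0.02 (standard error 0.06, unadjusted p = 0.807 in edgeR) changed sign with the library left out. Lpl, the lipoprotein lipase, and Stard4, a cytosolic sterol carrier, had log2 fold changes of 0.10 and 0.12, with unadjusted p of 0.375 and 0.185 in edgeR. Without HipR3 and HipR4 they were -0.12 and 0.04, and Lpl was 0.01 without HipR3 and 0.21 (unadjusted p = 0.031) without HipR11.

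Cyp46a1, the neuronal enzyme that makes 24-hydroxycholesterol for export from the brain, was 83.3, 83.7, 99.9 and 84.7 CPM in HipR3, HipR4, HipR7 and HipR11 and 91.9, 94.2, 93.6 and 107 CPM in HipR5, HipR9, HipR10 and HipR16. The DHEA libraries other than HipR7 lay below all of the sesame oil libraries (two-sided exact permutation test, p = 0.114). Its log2 fold change was -0.14 (standard error 0.07, unadjusted p = 0.0768, adjusted p = 0.585 from edgeR), and -0.20 (unadjusted p = 0.00822) without HipR7. It was -0.07 after GC correction (unadjusted p = 0.342) and without HipR3 and HipR4 (0.357), and -0.09 (0.239) without HipR16. Soat1, which esterifies cholesterol for storage, was at -0.08 (standard error 0.08).

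**Figure D3:**
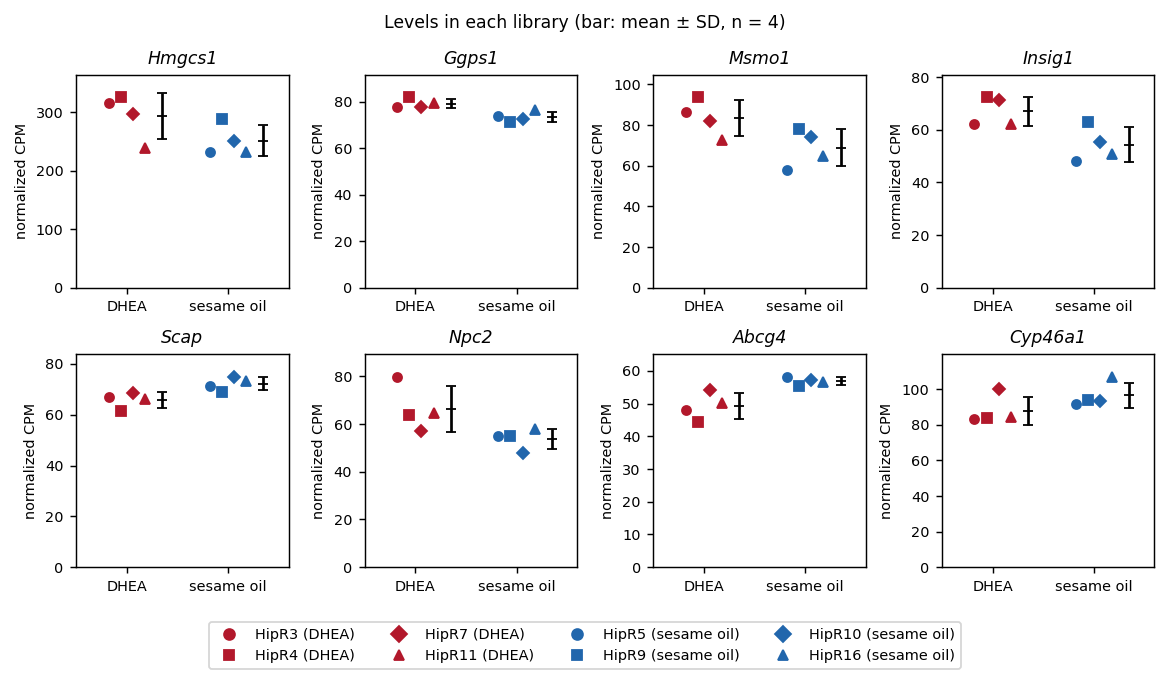
TMM-normalized CPM (vertical axes from 0) of 8 of the genes in each of the 4 DHEA libraries (red) and 4 sesame oil libraries (blue), with the mean ± SD in black. The groups do not overlap for Ggps1, Scap and Abcg4, and overlap for Hmgcs1, Msmo1, Insig1, Npc2 and Cyp46a1.

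How far these differences rested on HipR3 and HipR4 varied between the members. Without both, the log2 fold change was 0.09 for Ggps1 (0.11 with all libraries) and -0.10 for Scap (-0.13). Of the 5 members with an unadjusted p under 0.05 in edgeR, 1 (Insig1) stayed there with only HipR7 and HipR11 left in the DHEA group. Abcg4 (0.055) and Npc2 (0.0608) lay just above 0.05, and Msmo1 (0.132) and Hmgcs1 (0.354) further above it. Srebf1, Abca1 and Npc1 then fell under it instead. All 5 stayed under DESeq2, RLE normalization, both count filters, a higher prior count, robust moderation and GC correction, but on the FPKM scale with limma the unadjusted p of Hmgcs1 was 0.0951 or 0.0844, depending on the pseudocount.

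**Figure D4:**
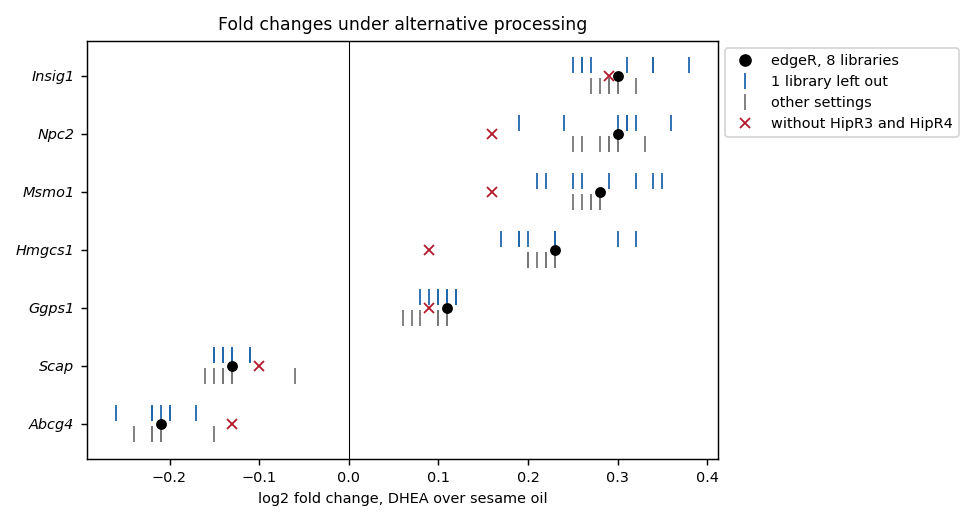
Log2 fold change (horizontal axis) of the 7 members with an unadjusted p under 0.05 or groups without overlap, from edgeR with 8 libraries (black), with 1 library left out (blue), under other settings (gray) and without HipR3 and HipR4 (red crosses). All values keep their sign, and Insig1 moves least without the 2 libraries.

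Some markers of glia and vessels were also higher in the libraries labelled DHEA at an unadjusted p under 0.05, and no marker of any list passed after adjustment over all genes. In bulk tissue fewer cells of a type and less RNA per cell cannot be told apart. All 12 oligodendrocyte and myelin markers had an unadjusted p under 0.05 in edgeR and were higher in the DHEA libraries, with a median log2 fold change of 0.37. They summed to 6977, 8793, 6910 and 7210 CPM in HipR3, HipR4, HipR7 and HipR11 and to 5594, 6687, 5554 and 4705 CPM in HipR5, HipR9, HipR10 and HipR16. The groups did not overlap, and HipR4 was the highest and HipR16 the lowest. Of the 10 astrocyte markers 6 were higher at this threshold, and of the 8 microglia markers 3. Of the 7 endothelium markers 3 were higher, and of the 6 oligodendrocyte precursor markers 1. None of these lists held a lower marker at this threshold. Of all genes 4.82% were higher and 4.49% lower at it, or 6.85% and 6.26% where the mean count reached 10. These shares apply to every marker list, here and below. The most abundant gene per length was Slc1a2 (291 FPKM) in the astrocyte list, Itm2a (36.4 FPKM) in the endothelium list and Gpr17 (11.3 FPKM) in the precursor list.

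Astrocyte markers summed to 6689 ± 500 CPM (SD, n = 4) with DHEA and 5916 ± 360 CPM (SD, n = 4) with sesame oil, and microglia markers to 367 ± 48.1 and 318 ± 20.5 CPM (SD, n = 4 each). Neuron markers summed to 11677 ± 412 and 11588 ± 298 CPM (SD, n = 4 each), with Snap25 the most abundant (715 FPKM), and 1 of 10, Rbfox3, named after its value was seen, had an unadjusted p under 0.05, with a log2 fold change of -0.16. Of the 8 hippocampal neuron markers 1, Spink8, likewise named after its value was seen, was higher with DHEA at this threshold (log2 fold change 0.32, unadjusted p = 0.0264 in edgeR). The choroid plexus list had 0 of 6 at this threshold and was led by Ttr (1601 FPKM). In the anterior pituitary list the groups did not overlap for Gh and Prl, which were lower with DHEA (adjusted p = 0.0818 and 0.0647 in edgeR). Among genes whose mean count reached 10, 3.53% did not overlap with DHEA lower. Prl was 0.0269, 0, 0.0832 and 0.219 CPM in HipR3, HipR4, HipR7 and HipR11 and 0.543, 3.32, 16.6 and 0.793 CPM in HipR5, HipR9, HipR10 and HipR16, so most of it came from HipR10 and HipR9. The other 4 genes of that list had an unadjusted p above 0.05, and Gh, Prl, Cga, Tshb and Pou1f1 had 0 counts in at least 1 library. No marker of any other list was at 0 in a library. The part of cell composition in the differences of Hmgcs1, Msmo1, Insig1, Npc2 and Abcg4 was not tested.

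**Figure D5:**
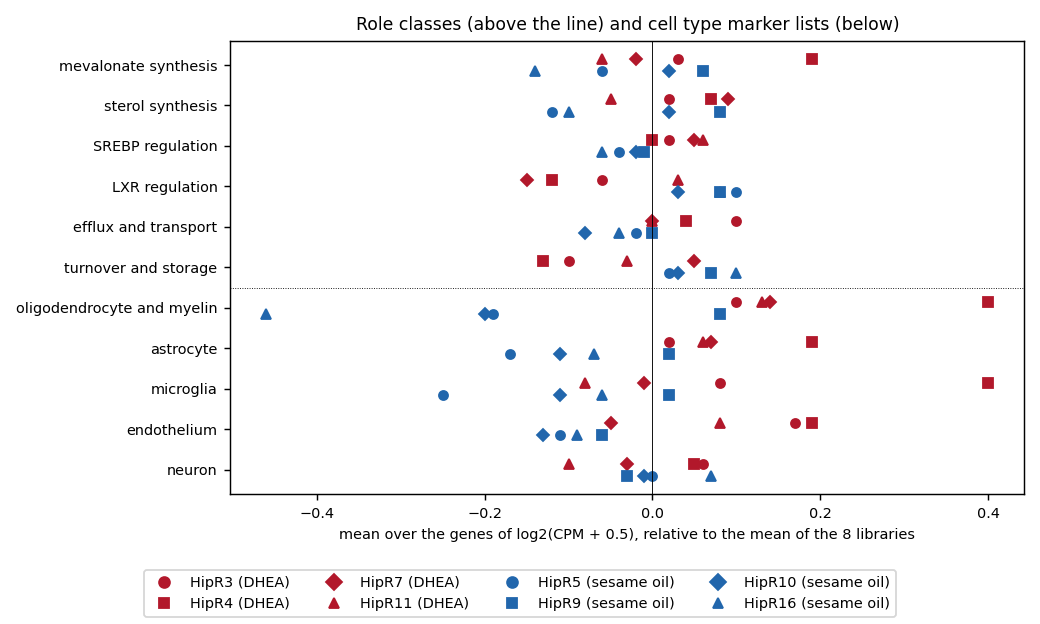
Mean over the genes of each role class (above the dotted line) or marker list (below it) of log2(CPM + 0.5) relative to the mean of the 8 libraries (horizontal axis), 1 point per library. The myelin markers run from -0.46 in HipR16 to 0.40 in HipR4, while the role classes stay between -0.15 and 0.19.

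The synthesis genes were, on the median, positively correlated with each other across libraries, which is a description without a test or a value for all genes. Over the 171 pairs of the 19 mevalonate and sterol genes, the median Spearman correlation across the 8 libraries was 0.40, and the median Pearson correlation was 0.43 after the group means were removed. Pairs of a synthesis gene with another member had medians of -0.00 and -0.05 (342 pairs), and pairs among the other members -0.10 and -0.00 (153 pairs). The mean of the mevalonate genes was highest in HipR4 (0.19 above the average of the libraries on the log2 scale) and lowest in HipR16 (-0.14). For the sterol genes HipR7 (0.09) and HipR9 (0.08) were highest and HipR5 (-0.12) was lowest. The lowest DHEA library was HipR11, at -0.06 for the mevalonate and -0.05 for the sterol genes. HipR9, of the sesame oil group, lay above it in both classes. The 19 synthesis genes together were highest in HipR4 (0.12) and lowest in HipR16 (-0.12), as were the myelin markers (0.40 and -0.46). The order of the other libraries differed between them in part. HipR10 was at 0.02 for synthesis and -0.20 for myelin, and HipR11 at -0.06 and 0.13. The signs matched in HipR3 (0.02 and 0.10), HipR5 (-0.09 and -0.19), HipR7 (0.04 and 0.14) and HipR9 (0.07 and 0.08). The part of the cell types in this co-variation was not tested. These correlations describe the same 8 libraries and share their depth and scaling.

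Beyond the 37 members, 49 further genes of lipid and sterol metabolism were examined. In edgeR 7 of them were higher with DHEA and 3 were lower at an unadjusted p under 0.05 (4.82% and 4.49% of all genes, or 6.85% and 6.26% where the mean count reached 10), and 0 passed after adjustment over all genes. After GC correction 8 were higher and 1 was lower, and without HipR3 and HipR4 the numbers were 7 and 1. Over all genes the numbers were 1389 and 1009 of 27612 after GC correction and 1081 and 1054 of 27062 without HipR3 and HipR4. Among 14 fatty acid synthesis genes, Scd1 and Scd2, the stearoyl-CoA desaturases, were higher (249 ± 15.7 against 209 ± 20.3 CPM and 1862 ± 81 against 1644 ± 109 CPM, SD, n = 4 each). Their log2 fold changes in edgeR were 0.25 (adjusted p = 0.275) and 0.18 (adjusted p = 0.401). The median log2 fold change of the 14 genes was 0.07.

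Of 8 genes for SREBP processing and sterol-regulated protein degradation, 3 were higher without overlap of the groups, as were 3.63% of genes whose mean count reached 10. Among them were Mbtps2, the protease that releases SREBP by the last cleavage, and Erlin2, which takes part in degradation at the endoplasmic reticulum, with log2 fold changes of 0.18 and 0.17. Paqr3, a Golgi protein that binds the SCAP-SREBP complex, was lower (-0.17, standard error 0.08). In the list of 19 other transport and oxidation genes, Tspo, a cholesterol-binding protein of the outer mitochondrial membrane, was at 3.36 ± 0.717 against 2.11 ± 0.41 CPM (SD, n = 4 each), a log2 fold change of 0.67 (standard error 0.22, adjusted p = 0.341 from edgeR). Nceh1, a cholesterol ester hydrolase, was higher by 0.13 on the log2 scale. Gramd1a and Gramd1b, which carry cholesterol from the plasma membrane to the endoplasmic reticulum, were lower, with log2 fold changes of -0.21 and -0.14. None of the 8 genes of the non-sterol mevalonate branches had an unadjusted p under 0.05.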

How the data were processed

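Paired-end RNA-seq libraries of ventral hippocampal RNA from 8 mice were analysed. The authors removed low-quality reads, aligned with HISAT2, counted with HTSeq-count and deposited raw counts per gene, and the submitters' notes name fastp and GRCm39. Tool versions and the annotation are not given in the sources used here. The authors also deposited FPKM values. For all 25234 genes with FPKM in at least 2 libraries these equal the counts divided by the library total and 1 length per gene (within 0.1%), so FPKM served for levels between genes and for limma.

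Counts of the 27612 genes with at least 1 count were normalized by TMM and tested with edgeR 4.0.16 in R 4.3.3 (quasi-likelihood test, prior count 0.125, Benjamini-Hochberg adjustment over all genes tested). CPM are TMM-scaled. The standard error is the log2 fold change divided by the square root of F. Single levels were compared by exact permutation of log2(CPM + 0.5) over the 70 allocations of 4 against 4. DESeq2 1.42.0, RLE normalization, at least 10 counts in total, filterByExpr, robust moderation, a prior count of 1, limma-trend (limma 3.58.1) on log2(FPKM + 1) and log2(FPKM + 0.1), GC correction (lowess, span 0.3, longest GENCODE vM21 transcript, available for 92.7% of 16813 genes) and leaving out libraries were the alternatives. The test was checked on simulated counts of 26660 genes, 200 of them changed at least 2-fold either way. The members' fold changes ran only from 0.84 to 1.23, so the check does not cover differences of their size. There edgeR recovered 195 and also called 69 unchanged genes, and DESeq2 recovered 194 and called 47.

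The members, lists and tests were chosen with earlier results of these data known. Members were described library by library where their unadjusted p was under 0.05, where the groups did not overlap in CPM, or where they were picked for their role (Hmgcs1, Sqle, Dhcr7, Srebf2, Insig1, Abca1, Apoe, Cyp46a1). Pairs of libraries within a group differed by a mean chi-square of 8.94 to 67.71 per gene, above sampling noise, so none was treated as a repeat deposit of another library. Each member had at least 70 counts in every library, and PCR duplicates and counting error limit the precision. The labels do not say which animal each library is from. The methods of the study give 4 mice per group, and the tests took each library as a replicate. The labels give no batch or pairing. Other assays of the study were not analysed here. Values of a few genes of the pathway and marker lists are not reported here.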

Additional observations from a re-analysis of the deposited data

Results flagged for a closer look

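In 10 of the 92 groups of 4 libraries examined (members and marker sums), the highest or lowest library lay apart from the other 3 beyond the 95% critical value of Dixon's ratio, which sets the gap to its neighbour against the whole range of the 4. Chance flags about 1 in 20 groups, or 4.6 of 92.

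HipR16 was the library set apart for 4 genes of the sesame oil group. Sqle was 43.4 CPM there and 52.1 to 53.2 CPM in the others (ratio 0.883), Sc5d, the lathosterol oxidase, was 87.2 against 95.2 to 96.7 CPM (0.841), and Srebf1 was 33.9 against 40.6 to 41.4 CPM (0.884). Cyp46a1 was higher in HipR16, at 107 against 91.9 to 94.2 CPM (0.851).

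HipR9 was set apart in the same group for Lss, the lanosterol synthase, at 39.1 against 32.5 to 33.5 CPM (0.840), and for Srebf2, at 166 against 156 to 157 CPM (0.936). Among the DHEA libraries, HipR7 was low for Mylip, at 20.4 against 23 to 23.3 CPM (0.889), and high for Cyp46a1, at 99.9 against 83.3 to 84.7 CPM (0.917).

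The summed myelin markers were 8793 CPM in HipR4 and 6910 to 7210 CPM in the other DHEA libraries (0.840). The summed anterior pituitary markers were 25.3 CPM in HipR10 and 2.13 to 5.51 CPM in the other sesame oil libraries (0.854).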

How the results depend on the processing

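No member passed the adjusted test, or the thresholds of the study, under any of the 18 alternatives. Of 234 values for the 13 members described singly, 202 kept their direction and side of an unadjusted p of 0.05, 9 moved above it, 14 moved below it and 9 changed sign. The sign changes were those of Srebf2 (-0.01 on both FPKM scales and without HipR3 and HipR4, -0.00 without HipR16) and Apoe (-0.01 on both FPKM scales, -0.04 without HipR3 and HipR4, -0.02 without HipR4 and -0.01 without HipR10). With 1 library left out, 4 to 9 members had an unadjusted p under 0.05 (9 without HipR11, 8 without HipR7 or HipR9). For the other pathway genes the number was 6 to 10 (6 without HipR3 or HipR16). The numbers over all genes also moved, from 1332 higher and 1239 lower of 27612 with no library left out. They were 1566 and 1670 of 27288 without HipR11 and 1776 and 1891 of 27264 without HipR7. Without HipR9 they were 1217 and 1033 of 27276. Without HipR3 they were 1051 and 887 of 27391, and without HipR16 963 and 1088 of 27341. In these fits Srebf2 ran from -0.00 to 0.04 and Apoe from -0.02 to 0.06. The medians ran from 0.00 to 0.07 for the SREBP regulators and from 0.06 to 0.12 for the transport genes. The SREBP median was -0.01 on both FPKM scales and without HipR3 and HipR4, and 0.08 after GC correction. The transport median was 0.07 on the log2(FPKM + 1) scale and 0.00 without HipR3 and HipR4, and the median of all members was 0.07 after GC correction. Over all genes, the number with an adjusted p under 0.05 was 0 in edgeR, 153 in DESeq2, 4 with robust moderation, 4 after GC correction and 93 without HipR7. The causes were not tested. No paired analysis was possible because the library numbers are not shared between the groups and the labels give no pairing. With 4 libraries per group, the median standard error of the members was 0.09 on the log2 scale. No limit of detection was computed, and even Insig1, at 0.30, did not pass after adjustment (adjusted p = 0.275 in edgeR).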
